A study of Mus musculus with 24 samples.

Results

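The genes described here encode the proteins of the mitochondrial ribosome. They were taken from the count table as the rows whose mouse gene is protein coding and whose symbol starts with Mrpl or Mrps, without use of any measured value, and 78 of the 54446 gene IDs in the table met the rule. Of these 49 carry an Mrpl symbol and 29 an Mrps symbol, and they lie on 17 chromosomes, with the highest number (11) on chromosome 11. A further 5 processed pseudogenes with such symbols were left out. RNA was sequenced from splenic CD4+ T cells of 6 mice on the C57BL6 background, 3 wild type (WT, mice 1, 3 and 4) and 3 lacking Aim2 (Aim2-/-, mice 1, 2 and 4). Aim2 encodes a cytosolic DNA sensor. The cells were cultured in RP10 medium with anti-CD3/CD28, and each mouse gave a library from unstimulated cells (0 h) and from 3, 6 and 24 h of stimulation, in all 24 libraries in 8 groups of 3. Age and sex were not in the labels, and the knockout allele was carried in the whole animal and not only in T cells.

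Mitochondria keep a small genome of their own that encodes subunits of the respiratory chain, 2 ribosomal RNAs and the transfer RNAs. All proteins of the ribosome that translates it are encoded in the nucleus, made in the cytosol and imported. Some of these proteins have counterparts in the bacterial ribosome, and others are found only in mitochondria. Resting T cells are small and have little mitochondrial mass, and an activated T cell grows and builds mitochondria before it divides. By structure, 51 of the 78 genes encode proteins of the large subunit (mt-LSU) and 26 proteins of the small subunit (mt-SSU). Mrps30 and Mrps18a belong to the large subunit in spite of their names. The product of Mrps36 is a part of the 2-oxoglutarate dehydrogenase complex and not of the ribosome. Proteins with a bacterial counterpart number 29 in the large and 16 in the small subunit, and mitochondria-specific proteins number 22 and 10.

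The libraries held 19715161 to 21627018 counts, so that 3 counts, the limit that a count of 0 allows, came to 0.139 to 0.152 CPM (counts scaled to a common library total, with TMM factors in the values given below). Such limits cover counting error only. Aim2 itself was read first as a check of the labels. At 0 h it stood at 75.0 and 67.5 CPM in WT mice 3 and 4, at 15.7 to 20.1 CPM in the 3 Aim2-/- mice, whereas the mouse labelled WT 1 had 21.5 CPM. The split held after 24 h, with 34.0 and 38.6 CPM in WT mice 3 and 4, 5.28 to 7.15 CPM in the Aim2-/- mice and 5.57 CPM in the mouse labelled WT 1. The libraries labelled WT 1 therefore went against their label at the level of this gene. The counts and ranges of each genotype comparison by the main edgeR fit are given below with and without that mouse. Cd4 stood at 874 to 926 CPM in WT and 864 to 1045 CPM in Aim2-/- libraries at 0 h, whereas the CD8 T cell marker Cd8a did not exceed 0.774 CPM and Cd8b1 stood at 7.78 to 11.3 CPM there. Reads of other cell types were more abundant in Aim2-/- libraries: over all times the 8 B cell markers summed to 99.9 to 418 CPM against 50.7 to 95.3 CPM in WT, the 8 myeloid markers to 36.2 to 350 against 14.9 to 59.1 CPM, the 6 erythroid markers to 12.8 to 498 against 7.52 to 71.8 CPM and the 7 granulocyte markers to 34.6 to 310 against 6.21 to 32.0 CPM. The 4 NK cell markers summed to 91.5 to 112 against 32.0 to 52.9 CPM at 0 h, most of it Eomes. Cd74 made up most of the B cell sum, with a mean at 0 h of 221 of 251 CPM in Aim2-/- libraries. In WT libraries it made up 65.0 of 75.4 CPM. The stimulus was seen in Il2ra, the interleukin-2 receptor alpha chain, which went from 84.5 to 124 CPM in WT at 0 h to 759 to 781 CPM at 24 h.

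Promoter sequences of 69 of the 78 genes were found in RefSeq (build GRCm38.p6), each reaching from 250 bases before to 50 bases after the RefSeq start. Short cores of 6 motifs were searched on both strands. A gene counted if any of its promoters held the core. The background was all 17492 protein coding genes with a promoter, expressed here or not. The ETS core CCGGAAG was found in 37.7% of the 69 members against 12.9% of all these genes. The YY1 core AAGATGGC was found in 17.4% against 3.6%, and the NRF1 core GCGCATGC in 11.6% against 3.9%. The E-box CACGTG (7.2% against 8.9%) and the CCAAT box CCAAT (39.1% against 42.3%) stood near the share over all these genes. So did the GC box GGGCGG (49.3% against 49.2%). NRF1 and the ETS factor GABP are textbook regulators of nuclear genes for mitochondrial proteins, and a match to a core is a description of letters and not of binding. At least 1 of the first 3 cores was held by 38 genes (55.1%). The median log2 change from 0 to 24 h in WT cells was 1.54 (quartiles 1.18 and 1.96) over the 37 of these that were tested, against 1.70 (1.28 and 2.06) over 31 tested genes with none, so the ranges lay over each other. The upstream sequences of 4 genes are shown without any exon bases, 5′ to 3′ in the direction of the gene, with the ETS or NRF1 core in capitals. They were chosen after their values were seen, as the largest (Mrpl17, Mrps22) and smallest (Mrpl43, Mrpl9) WT changes at 24 h among 11 genes that hold 1 of the 3 cores in an exon-free stretch of at least 100 bases.
Mrpl17: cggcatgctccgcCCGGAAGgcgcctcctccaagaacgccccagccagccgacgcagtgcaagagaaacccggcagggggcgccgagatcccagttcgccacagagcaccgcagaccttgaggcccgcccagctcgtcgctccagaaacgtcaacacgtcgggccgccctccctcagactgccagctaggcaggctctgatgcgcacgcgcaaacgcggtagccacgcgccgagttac
Mrps22: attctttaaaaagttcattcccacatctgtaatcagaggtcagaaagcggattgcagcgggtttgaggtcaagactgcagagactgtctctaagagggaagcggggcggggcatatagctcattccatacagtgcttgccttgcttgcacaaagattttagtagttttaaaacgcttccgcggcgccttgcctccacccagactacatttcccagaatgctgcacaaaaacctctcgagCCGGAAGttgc
Mrpl43: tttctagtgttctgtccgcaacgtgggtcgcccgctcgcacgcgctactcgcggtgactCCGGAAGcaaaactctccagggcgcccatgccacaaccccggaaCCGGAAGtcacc
Mrpl9: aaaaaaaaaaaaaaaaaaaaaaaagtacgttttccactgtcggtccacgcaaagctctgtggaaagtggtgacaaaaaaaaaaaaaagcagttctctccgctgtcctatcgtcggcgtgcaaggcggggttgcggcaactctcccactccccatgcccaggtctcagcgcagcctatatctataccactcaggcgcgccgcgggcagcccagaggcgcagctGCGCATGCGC
The Mrpl17 stretch lies at chr7:105811100-105811337 on the minus strand, with its ETS core 237 to 231 bases before the RefSeq start. The Mrps22 stretch lies at chr9:98601680-98601929 on the minus strand, with the core 11 to 5 bases before the start. Mrpl43 (chr19:45006443-45006557, minus strand) has the core at 56 to 50 and again at 12 to 6 bases before the start. Mrpl9 (chr3:94443086-94443317, plus strand) has the NRF1 core on both strands, at 28 to 21 and 26 to 19 bases, so that the pair of matches overlaps.

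The first question was how far the transcripts of the mitochondrial ribosome as a whole followed stimulation. Their summed level rose nearly 3 times within 24 h in both genotypes. In WT cells the sum was 2281, 2548 and 2386 CPM at 0 h in mice 1, 3 and 4, then 2932, 2950 and 2521 CPM at 3 h, 3452, 4061 and 3709 CPM at 6 h, and 6834, 7064 and 6915 CPM at 24 h. In Aim2-/- cells of mice 1, 2 and 4 it was 2397, 2366 and 2654 CPM at 0 h, 2692, 2673 and 3237 CPM at 3 h, 3532, 3863 and 4451 CPM at 6 h, and 6749, 6794 and 7434 CPM at 24 h. No 24 h library overlapped with any earlier one, whereas the lowest WT library at 3 h lay below the highest at 0 h. Measured against the same mouse at 0 h, the sum at 24 h was 2.89 ± 0.112 times as high in WT (SD, n = 3) and 2.83 ± 0.0372 times in Aim2-/- mice. At 6 h it was 1.55 ± 0.0402 and 1.59 ± 0.107 times as high, and at 3 h 1.17 ± 0.115 and 1.16 ± 0.0541 times. The summed CPM of the 81 genes for proteins of the cytosolic ribosome was 1.20 times the 0 h value in WT (range 1.09 to 1.34) and 1.31 times in Aim2-/- mice (1.19 to 1.51) at 24 h. CPM is relative to the other RNAs of a library, and in bulk samples fewer cells of a type and less RNA per cell cannot be told apart.

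**Figure D1:**
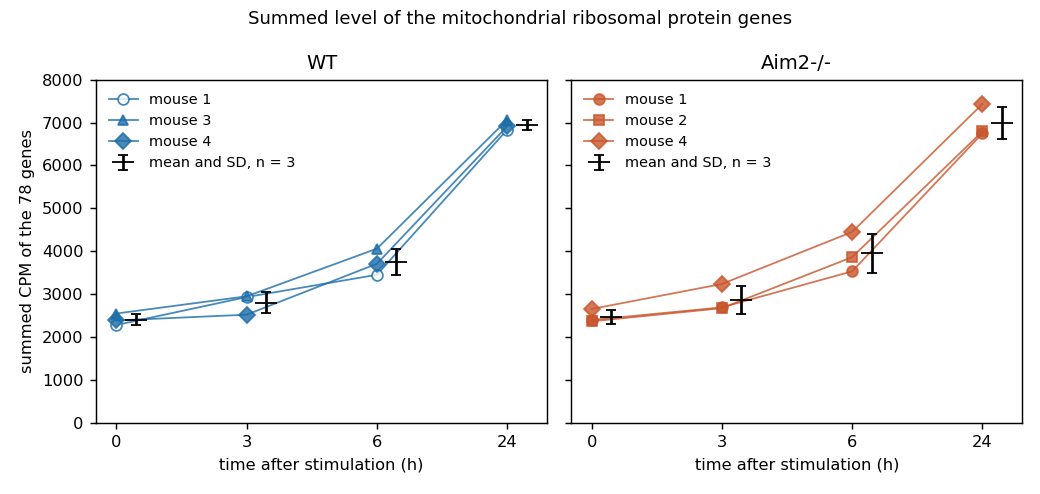
Summed CPM of the mitochondrial ribosomal protein genes per library (vertical axis, from 0) at 0, 3, 6 and 24 h, with times evenly spaced. Points are libraries of 3 mice per genotype, lines join the libraries of a mouse, open circles are the mouse labelled WT 1, and bars the mean ± SD. WT means are 2405, 2801, 3741 and 6938 CPM.

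Both subunits rose. The ratio of summed large subunit to small subunit CPM lay between 2.24 and 2.45 in all 24 libraries, and its WT means at 0, 6 and 24 h were 2.40 ± 0.0451, 2.27 ± 0.0300 and 2.34 ± 0.0208 (SD, n = 3). At 6 h the WT ratios (2.24 to 2.30) lay below all WT ratios at 0 h (2.36 to 2.45). The ratio was lower at 6 h than at 0 h in 6 of 6 mice, from 2.32, 2.44 and 2.38 to 2.31, 2.33 and 2.29 in Aim2-/- mice 1, 2 and 4. Of the tested members, 48 of 50 large subunit genes and 26 of 26 small subunit genes were called higher at 24 h in WT, with median log2 changes of 1.67 and 1.65.

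Gene by gene, 77 members passed the filter on low counts. The exception was Mrpl53, which encodes a large subunit protein and stood at 0 to 0.492 CPM in the 24 libraries. Of its exon bases 88.0% are also exon bases of Gm42688 on the same strand, and how the counting treats such bases can set its level. At 24 h in WT cells 75 members were called higher and 1 lower (edgeR quasi-likelihood test, Benjamini-Hochberg adjusted p under 0.05), with a median log2 change of 1.67, or 3.19-fold. Over all 15325 genes tested, 36.6% were called higher and 34.8% lower in this comparison. For Aim2-/- cells the count was 76 higher and none lower, with a median of 1.61 (3.04-fold), against 36.8% of all genes higher and 33.5% lower. Of all tested genes 15.2% in WT and 14.3% in Aim2-/- cells had a log2 change above the median of the members. The same 75 members were called higher in both genotypes. Every 24 h library lay above every 0 h library for 75 members in WT and for 75 in Aim2-/- cells. Rises of over 1 on the log2 scale were called for 65 members in WT and 69 in Aim2-/- cells, and rises of over 2 for 20 and 16. Leaving out any single WT mouse left 75 members called higher, and leaving out any single Aim2-/- mouse 75 or 76.

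**Figure D2:**
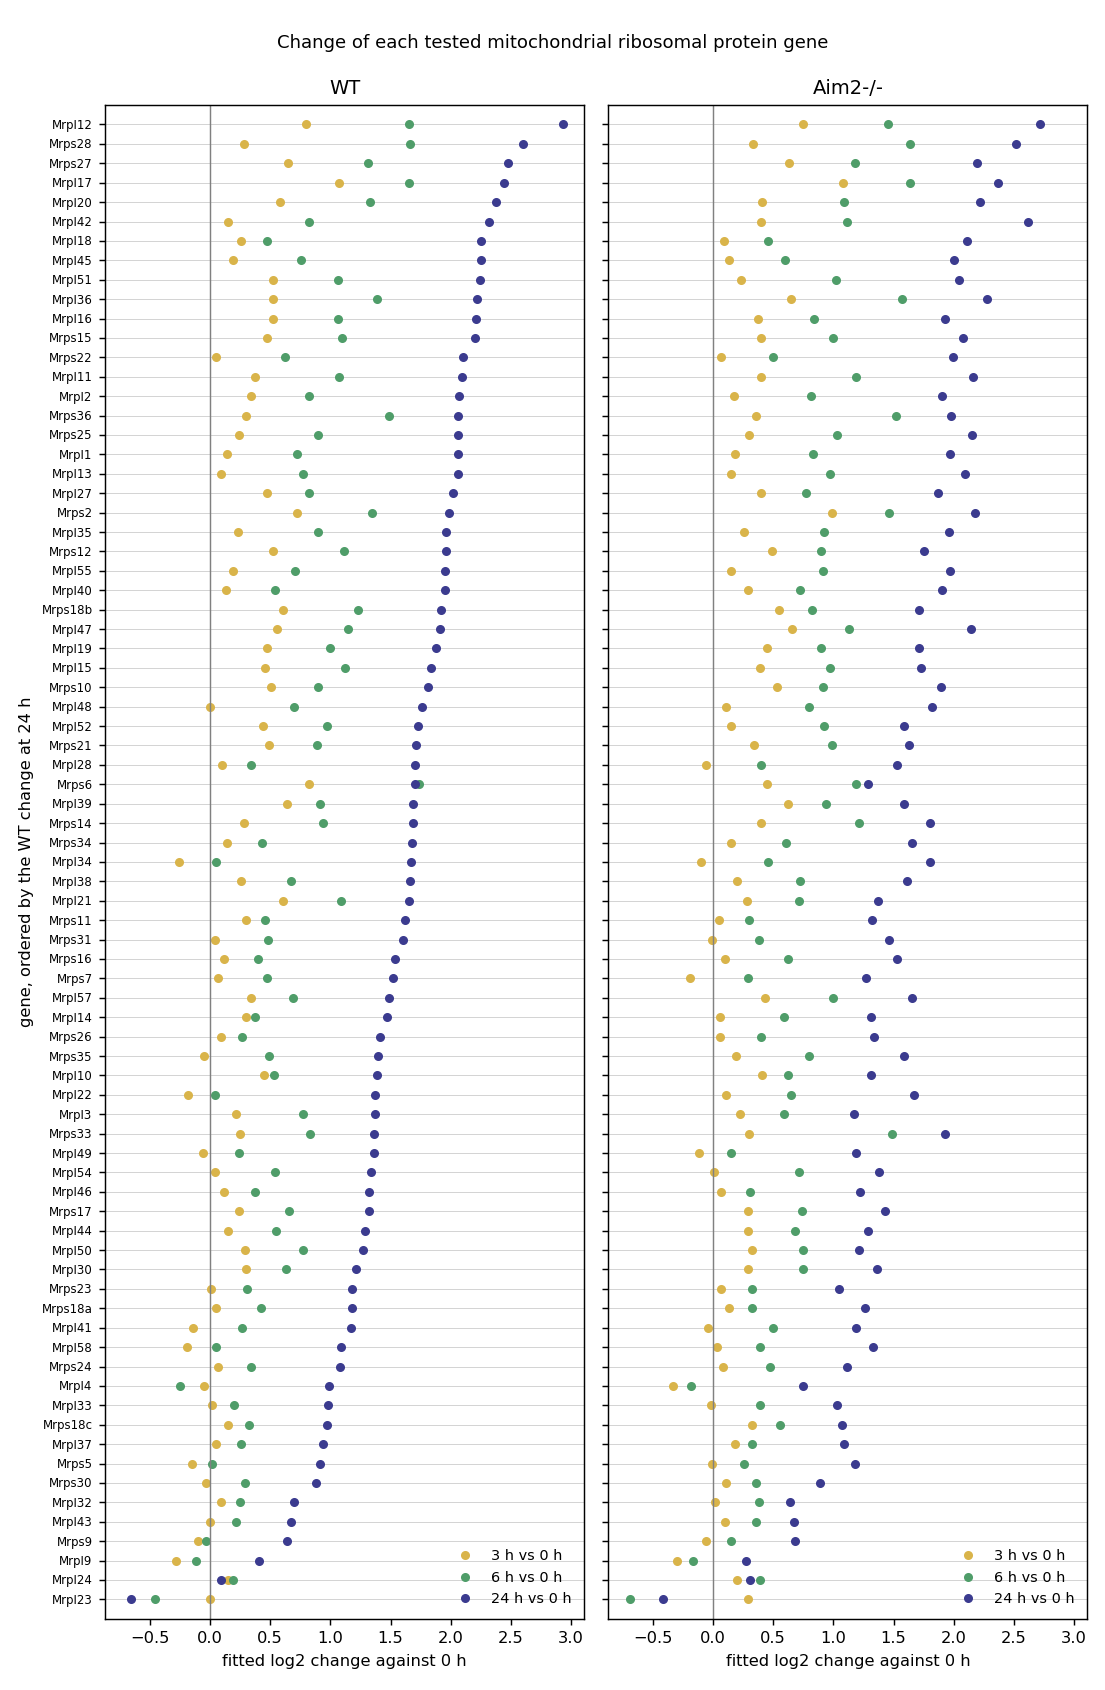
Log2 change against 0 h (horizontal axis) of each of the 77 tested members, ordered by the WT change at 24 h, for both genotypes at 3, 6 and 24 h. At 24 h nearly all points lie right of 0, and Mrpl23 and Mrpl24 stand at the lower end of the WT order.

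Mrpl12 changed most. Its product is a large subunit protein with a bacterial counterpart that also binds the mitochondrial RNA polymerase, and the gene lies on chromosome 11 (120484613 to 120489065, plus strand, GRCm38). It stood at 38.3, 47.6 and 47.7 CPM at 0 h in WT mice 1, 3 and 4, at 81.5, 91.7 and 58.9 CPM at 3 h, at 124, 158 and 137 CPM at 6 h and at 346, 342 and 332 CPM at 24 h. Each time point was clear of the one before in all WT mice. The change at 24 h was 2.93 ± 0.19 on the log2 scale (SE), 7.63-fold, with an edgeR adjusted p of 2.0e-11. In Aim2-/- mice 1, 2 and 4 it rose from 51.3, 45.0 and 63.3 CPM to 341, 344 and 369 CPM. That change was 2.72 (edgeR adjusted p = 7.1e-11). Of its exon bases 13.1% are overlapped by the antisense gene Gm16755.

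Mrps28, a small subunit gene on chromosome 3 (8802146 to 8923918, minus strand), followed another course. It held 7.55, 10.8 and 9.88 CPM at 0 h in WT mice 1, 3 and 4, 12.3, 12.8 and 9.29 CPM at 3 h, 27.7, 33.1 and 28.4 CPM at 6 h and 57.3, 57.6 and 56.8 CPM at 24 h. The 0 and 3 h libraries overlapped and the later ones did not. Its log2 change was 0.28 at 3 h (edgeR adjusted p = 0.308), 1.66 at 6 h and 2.60 ± 0.20 at 24 h (2.5e-10), and in Aim2-/- cells 2.52 at 24 h.

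Mrpl17, a large subunit gene whose upstream sequence is shown above, was early. It held 20.7, 22.3 and 22.9 CPM at 0 h and 48.0, 52.4 and 38.2 CPM at 3 h in WT mice 1, 3 and 4, with no overlap. It was the member with the largest change at 3 h in both genotypes, 1.07 in WT (edgeR adjusted p = 1.5e-05) and 1.08 in Aim2-/- cells on the log2 scale. At 24 h it stood at 116, 123 and 118 CPM in WT, a change of 2.44 ± 0.16 (1.5e-11). Mrpl17 was the only member called higher by over 1 on the log2 scale at 3 h in WT.

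Mrps27, a small subunit gene for a pentatricopeptide repeat protein, rose from 12.3, 14.7 and 16.5 CPM to 73.9, 87.4 and 80.9 CPM in WT mice 1, 3 and 4. Its change was 2.48 ± 0.14 in WT (edgeR adjusted p = 1.5e-12) and 2.19 in Aim2-/- cells, and 24.2% of its exon bases are overlapped by the antisense 6430562O15Rik. Mrpl20, a large subunit gene, rose by 2.38 ± 0.15 in WT (1.2e-11). Mrpl42, a mitochondria-specific large subunit gene, went from 19.6, 18.5 and 21.4 CPM to 122, 109 and 136 CPM in Aim2-/- mice, a change of 2.62 (3.0e-13), against 2.32 in WT. Mrpl36, whose product belongs to the smallest proteins of the large subunit, rose by 2.22 in WT and 2.28 in Aim2-/- cells.

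At 6 h in WT cells 62 members were called higher and 1 lower, with a median log2 change of 0.67 (1.60-fold), against 26.4% higher and 24.8% lower of all genes. Aim2-/- cells had 70 higher and 2 lower, with a median of 0.72, against 28.5% and 22.7% of all genes. The members higher in both genotypes numbered 62. The largest WT changes at 6 h were those of Mrps6 (1.74), Mrps28 (1.66), Mrpl12 (1.65), Mrpl17 (1.65) and Mrps36 (1.49) on the log2 scale. The largest in Aim2-/- cells were those of Mrpl17 and Mrps28 (1.64 each), Mrpl36 (1.57), Mrps36 (1.52) and Mrps33 (1.49). The Aim2-/- members not called at 6 h, named after their values were seen, were Mrpl33 (0.39), Mrps5 (0.26), Mrpl49 (0.15), Mrps9 (0.15) and Mrpl9 (-0.17). Mrps36 is a gene of few counts, with 0.300, 0.981 and 0.507 CPM at 0 h and 2.23, 2.26 and 3.03 CPM at 24 h in WT mice 1, 3 and 4, and 17.0% of its 51-base words also occur in pseudogenes.

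At 3 h the response of the members was smaller and depended on single mice. In WT cells 27 were called higher and 1 lower, with a median log2 change of 0.22, against 16.2% higher and 16.4% lower of all genes. Aim2-/- cells had 23 higher and 2 lower, with a median of 0.20, against 16.1% and 14.6% of all genes. The members higher in both genotypes numbered 20. The 28 WT calls became 13 without WT mouse 3 and 11 without the mouse labelled WT 1, and the 25 Aim2-/- calls became 15 without Aim2-/- mouse 4 and 16 without Aim2-/- mouse 2. The largest WT changes after Mrpl17 were those of Mrps6 (0.82, edgeR adjusted p = 0.00688), Mrpl12 (0.80, 0.00195), Mrps2 (0.72, 3.7e-05) and Mrps27 (0.65, 6.5e-04). In Aim2-/- cells Mrps2 (0.99), Mrpl12 (0.75), Mrpl47 (0.66) and Mrpl36 (0.65) followed Mrpl17. Mrps2, a small subunit gene with a bacterial counterpart, held 30.2, 28.3 and 29.3 CPM at 0 h and 48.4, 53.5 and 42.7 CPM at 3 h in WT mice, and 25.1, 24.2 and 28.1 CPM and 44.8, 47.6 and 61.6 CPM in Aim2-/- mice. The 3 h values lay above all 0 h values in each genotype.

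Genes with a bacterial counterpart held more of the calls at 3 h, but not at 6 h. At 3 h 21 of 45 of them (46.7%) were called higher in WT, against 6 of 31 mitochondria-specific genes (19.4%), and in Aim2-/- cells 18 of 45 against 5 of 31. Over all genes 16.2% and 16.1% were called higher at this time, so the share of the mitochondria-specific genes was near that of all genes. At 6 h the order was the other way. In WT 34 of 45 (75.6%) were called higher against 27 of 31 (87.1%), with 26.4% of all genes. In Aim2-/- cells it was 39 of 45 (86.7%) against 30 of 31 (96.8%), with 28.5% of all genes. At 24 h in WT the medians of genes with a bacterial counterpart and of mitochondria-specific genes were 1.70 and 1.49 on the log2 scale. Split further, the median was 1.84 for large subunit genes with a bacterial counterpart, 1.36 for mitochondria-specific large subunit genes, and 1.65 and 1.64 for the same classes of the small subunit. In Aim2-/- cells these medians were 1.73, 1.38, 1.48 and 1.68 in the same order, so the small subunit classes stood the other way there. These counts and medians are descriptions of the classes, and their difference was not tested.

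Most of the change came after 6 h. Over the 74 members with a WT change of over 0.5 at 24 h, the median share of the 24 h log2 change already present was 12.5% at 3 h and 39.6% at 6 h (quartiles 28.3% and 53.8%). The Aim2-/- medians were 13.2% and 47.0% (quartiles 37.2% and 53.7%). The fitted mean rose at every step for 61 of 77 members in WT and 64 in Aim2-/- cells. From 3 to 6 h 51 members were called higher and 1 lower in WT (median 0.42, against 14.2% and 11.5% of all genes), and 58 and 1 in Aim2-/- cells (0.46, against 13.4% and 9.89%). These counts also rested on single mice: the 52 WT calls became 18 without WT mouse 4 and 26 without WT mouse 3, and the 59 Aim2-/- calls became 30 without Aim2-/- mouse 2. From 6 to 24 h 73 were called higher and 0 lower in WT (0.90, against 29.6% and 28.0%), and 71 and 0 in Aim2-/- cells (0.89, against 27.4% and 27.0%).

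Between 3 and 6 h the largest changes were those of Mrps28 (1.38 in WT and 1.30 in Aim2-/- cells) and Mrps36 (1.19 and 1.16), with Mrps6 (0.93), Mrpl36 (0.87) and Mrpl12 (0.85) next in WT and Mrps33 (1.19), Mrpl36 (0.92) and Mrpl13 (0.83) next in Aim2-/- cells. Between 6 and 24 h the same 5 genes led in both genotypes. Mrpl18 changed by 1.79 in WT and 1.65 in Aim2-/- cells, Mrpl34 by 1.62 and 1.34, Mrpl42 by 1.50 and 1.52, Mrpl45 by 1.49 and 1.41 and Mrps22 by 1.48 and 1.50. Mrpl18, a large subunit gene whose product in bacteria binds 5S rRNA, is the clearest late gene. It held 32.9, 32.4 and 32.5 CPM at 0 h, 40.2, 46.5 and 48.5 CPM at 6 h and 150, 162 and 155 CPM at 24 h in WT mice 1, 3 and 4. In Aim2-/- mice 1, 2 and 4 it held 36.2, 35.4 and 35.7, then 47.1, 46.2 and 54.0, and then 147, 151 and 165 CPM. Mrpl45, whose product sits at the exit tunnel and ties the ribosome to the inner membrane, went from 47.5, 49.3 and 46.7 CPM at 6 h to 137, 139 and 128 CPM at 24 h in WT.

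Mrps6 was early and then flat. This small subunit gene held 36.4, 34.5 and 30.6 CPM at 0 h, 66.8, 68.7 and 43.5 CPM at 3 h, 95.3, 138 and 107 CPM at 6 h and 106, 112 and 111 CPM at 24 h in WT mice 1, 3 and 4. The 6 and 24 h libraries overlapped, and the WT log2 change from 6 to 24 h was -0.05 (edgeR adjusted p = 0.871). In Aim2-/- mice 1, 2 and 4 it stood at 93.1, 106 and 153 CPM at 6 h and at 140, 97.1 and 139 CPM at 24 h. Its exons share 19.9% of their bases with Slc5a3 and Gm49711 on the same strand.

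**Figure D3:**
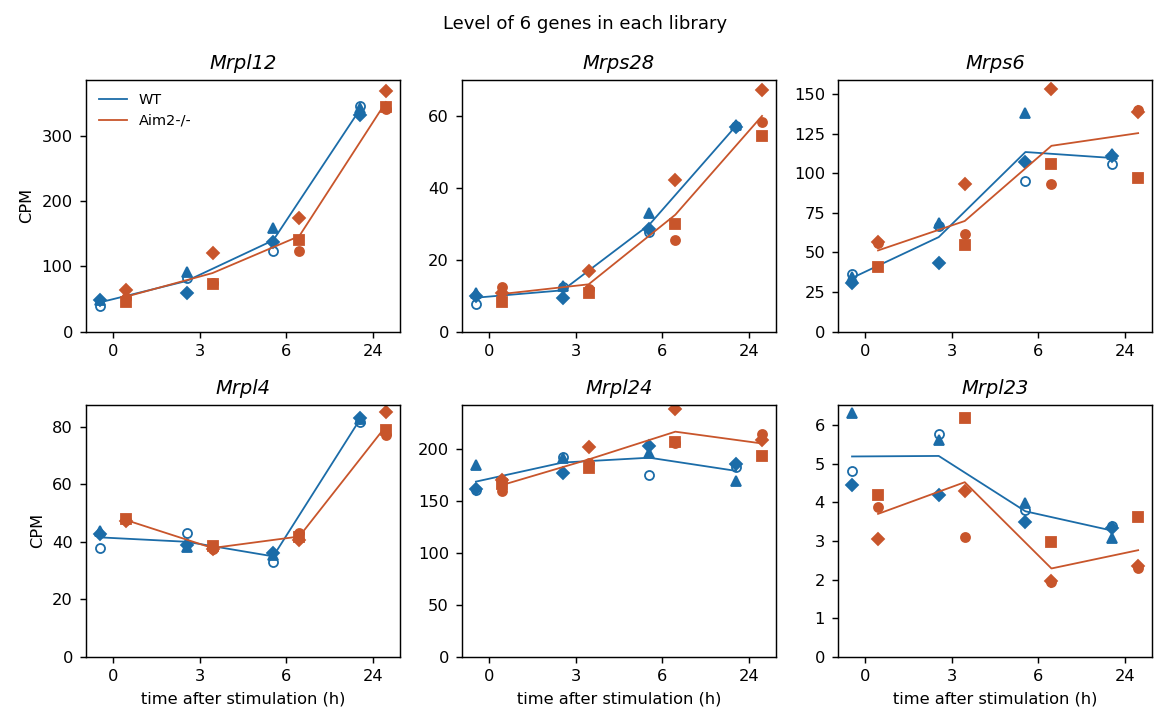
CPM (linear axis from 0) per library of Mrpl12, Mrps28, Mrps6, Mrpl4, Mrpl24 and Mrpl23 at 0, 3, 6 and 24 h, evenly spaced, with lines through the group means of 3 mice and open circles for the mouse labelled WT 1. Mrpl12 and Mrps28 climb to 24 h, Mrps6 levels off at 6 h, Mrpl4 dips before it rises, Mrpl24 stays within 159 to 238 CPM and Mrpl23 does not exceed 6.30 CPM.

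A few members did not follow. Mrpl24, a large subunit gene on chromosome 3 (87919506 to 87923672, plus strand), was the most abundant member per length at 0 h. It held 160, 184 and 161 CPM at 0 h and 182, 169 and 185 CPM at 24 h in WT mice 1, 3 and 4, so the groups overlapped. Its log2 change at 24 h was 0.09 in WT (95% interval -0.08 to 0.25, edgeR adjusted p = 0.339) and 0.31 in Aim2-/- cells (0.14 to 0.48, 0.00171). By CPM per kilobase of exon (RPKM) it ranked at 1 in WT at 0 h (74.7) and at 12 at 24 h (79.3). Of its exon bases 26.3% are overlapped by Rrnad1 on the other strand.

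Mrpl23, a large subunit gene on chromosome 7 (142532686 to 142540747, plus strand), was the member that fell. It held 4.80, 6.30 and 4.46 CPM at 0 h, 3.81, 3.99 and 3.50 CPM at 6 h and 3.39, 3.08 and 3.33 CPM at 24 h in WT mice 1, 3 and 4. All 24 h values lay below all 0 h values, and the log2 change was -0.66 ± 0.25 (edgeR adjusted p = 0.0244). The call was lost without WT mouse 3 (-0.52), without the mouse labelled WT 1 (-0.75) and without the filter on low counts. In Aim2-/- cells Mrpl23 held 3.87, 4.18 and 3.05 CPM at 0 h and 2.30, 3.62 and 2.36 CPM at 24 h, which overlapped, with a change of -0.42 (0.148). There it was called lower at 6 h (-0.69, 0.0298) and from 3 to 6 h (-0.98, 0.0088). Of its 51-base words 11.7% also occur elsewhere, among others in Mrpl23-ps1.

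Mrpl4 and Mrpl9 dipped before they rose. Mrpl4, a large subunit gene, held 37.9, 43.8 and 42.8 CPM at 0 h, 33.1, 35.5 and 36.1 CPM at 6 h and 81.6, 82.7 and 83.1 CPM at 24 h in WT mice 1, 3 and 4. It was called lower at 6 h in WT (-0.25, edgeR adjusted p = 0.00451), at 3 h in Aim2-/- cells (-0.33, 9.0e-04) and at 6 h there (-0.18, 0.0289). Its change at 24 h was 0.99 in WT and 0.75 in Aim2-/- cells. Mrpl9, also of the large subunit and shown above with its NRF1 core, went from 97.5, 107 and 97.2 CPM at 0 h to 87.8, 83.6 and 76.6 CPM at 3 h and 131, 141 and 128 CPM at 24 h in WT. It was called lower at 3 h in WT (-0.28, 0.0329) and Aim2-/- cells (-0.30, 0.0264) and higher at 24 h (0.41 and 0.27). These small falls depended on the scaling. With TMM factors the median of all genes lay at 0.02 to 0.08 on the log2 scale at 3 and 6 h against 0 h, with library totals alone it lay at 0.11 to 0.20, and by the latter no WT member was called lower at these times. In Aim2-/- cells library totals left 1 member called lower at 3 h, Mrpl4 (-0.22), and none at 6 h.

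The members with known side roles all rose at 24 h. Mrpl58, which releases peptides from stalled ribosomes, changed by 1.09 in WT and 1.33 in Aim2-/- cells on the log2 scale. Mrpl44, which has an RNase III-like fold, changed by 1.29 in each. The 3 paralogs of one bacterial protein differed in size of change: Mrps18b by 1.92 and 1.71, Mrps18a by 1.18 and 1.26 and Mrps18c by 0.97 and 1.07. Mrps18c was not called at 6 h in WT (0.32, edgeR adjusted p = 0.0569), whereas Mrps18b was (1.23). Mrps30, placed in the large subunit, changed by 0.88 and 0.89.

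Per length, the members spanned a wide range at 0 h. The highest in WT were Mrpl24 (74.7 RPKM), Mrpl54 (43.5) and Mrps23 (38.9), and the lowest Mrpl53 (0.365), Mrps36 (0.468) and Mrpl23 (1.06). Mrpl54 stood at 110 RPKM at 24 h, at rank 3. Across the 77 tested members the Spearman correlation of the WT change at 24 h with RPKM at 0 h was -0.232, and with the change at 3 h 0.637. The last pair shares the 0 h libraries, and all of these values describe genes within the same libraries.

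The counts were repeated without genes that share sequence with others. At least 10% of exon bases or 51-base words were shared by 25 members. Over the other 53 all were called higher at 24 h in both genotypes, with medians of 1.67 in WT and 1.59 in Aim2-/- cells, and 44 were called higher at 6 h in WT. Head-to-head neighbours were common: 18 of the 78 members (23.1%) had one, against 6.8% of 21918 genes. A neighbour was a protein coding gene on the other strand whose start lay within 1000 bases upstream of the gene's own. Pairs whose starts overlap, such as Mrpl46 and Mrps11, were not counted. The 17 neighbours that were tested did not move as a block at 24 h in WT, with 10 called higher, 5 lower and a median log2 change of 0.58. Of all genes 36.6% were called higher and 34.8% lower in this comparison. Mrpl51 (2.24) and Ncapd2 (2.53), 100 bases apart, both rose, whereas beside Mrpl2 (2.07) the gene Klc4, 207 bases away, fell (-2.77). Mrpl57 changed by 1.49 and its neighbour Ska3, 49 bases away, by 3.64.

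Other genes of mitochondrial translation rose less at the median. Of all genes 36.6% were called higher and 34.8% lower at 24 h in WT, and 36.8% and 33.5% in Aim2-/- cells. In WT at 24 h, 5 of 5 mitoribosomal protein genes with other symbols were called higher (median log2 change 1.20), with Gadd45gip1 at 1.98, Chchd1 at 1.44 and Aurkaip1 at 1.20. Of 27 genes for assembly and rRNA modification 20 were higher and 4 lower (0.72), led by the rRNA methyltransferase genes Mrm3 (2.81) and Mettl15 (2.74) and by the GTPase gene Mtg1 (2.28). Of 14 translation factor genes 13 were higher and none lower (1.13), with the elongation factor genes Tsfm (2.47) and Gfm1 (2.44) and 1700021F05Rik (2.14). Of 17 tRNA synthetase genes 15 were higher and 1, Hars2, lower (0.77). Rars2 changed by 2.44 and Yars2 by 1.63. Of 6 genes of mitochondrial transcription and RNA stability 4 were higher (1.15), with Slirp at 2.04, Tefm at 1.91 and Lrpprc at 1.50. The calls in Aim2-/- cells were 5 of 5, 19 higher and 3 lower, 13 and 1, 15 and 1, and 4 and 0 for these lists in the same order.

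The mRNAs encoded in mitochondrial DNA did not share the rise in WT cells. Of 13 such protein-coding genes 7 were tested, and in WT at 24 h none was called higher and 3 lower, with a median of -0.53. They were mt-Nd5 (-0.78, edgeR adjusted p = 0.00493), mt-Nd4 (-0.64) and mt-Co1 (-0.62), subunits of respiratory complexes. Of all genes 36.6% were called higher and 34.8% lower, so 3 of 7 called lower was not far from the share of all genes. Among Aim2-/- libraries 2 of the 7 were higher and 0 lower, with a median of 0.09, against 36.8% and 33.5% of all genes. These mice differed among themselves. The summed CPM of the genes encoded in mitochondrial DNA went from 15329 to 24675 in Aim2-/- mouse 1, from 13088 to 11623 in mouse 2 and from 19112 to 19210 in mouse 4 between 0 and 24 h, against 17002, 19718 and 15112 to 13580, 12341 and 12291 in WT mice 1, 3 and 4. Of the 2 mitochondrial rRNAs mt-Rnr2 was lower in WT (-0.82, 0.0105). The libraries were made from polyadenylated RNA, and the poly(A) tails of mitochondrial RNAs are short, and the part of this in their levels was not tested. Among 79 tested genes for proteins of the cytosolic ribosome 45 were higher and 3 lower in WT (median 0.47) and 54 and 0 in Aim2-/- cells (0.76), with Rps27l (2.48), Rpl27 (2.05) and Rpl36a (1.71) changing most in WT.

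**Figure D4:**
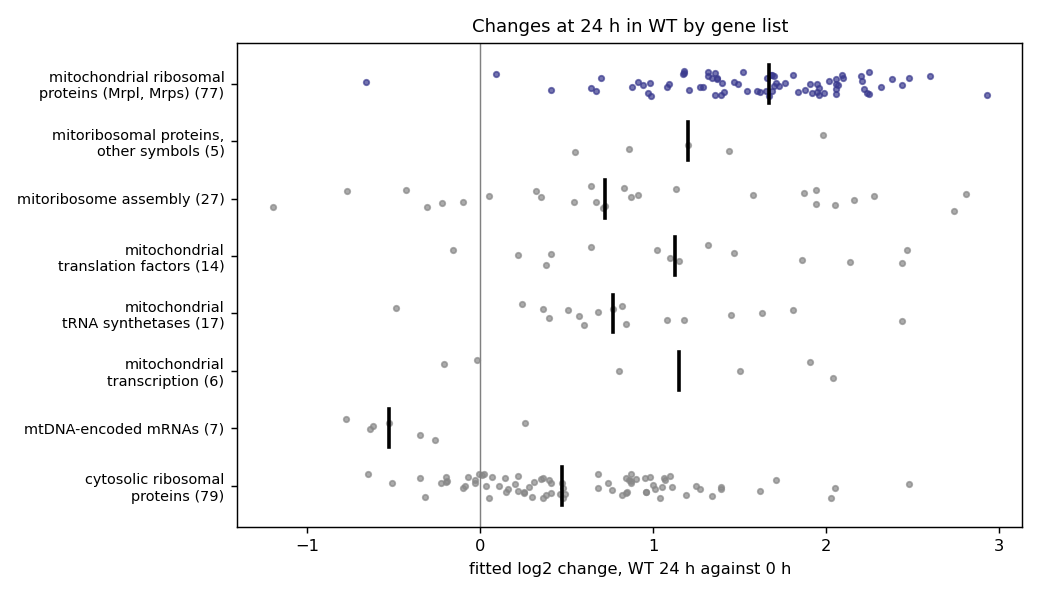
Log2 change from 0 to 24 h in WT cells (horizontal axis) of each tested gene, by list, with black bars at the medians. The median of the Mrpl and Mrps genes is 1.67, that of the cytosolic ribosomal protein genes 0.47 and that of the genes encoded in mitochondrial DNA -0.53.

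The second question was whether the absence of Aim2 changed these genes. At 0, 3 and 24 h no member was called different between Aim2-/- and WT cells by edgeR, with an unadjusted p under 0.05 for 10, 1 and 3 members, while 5.23%, 0.294% and 0.666% of all genes were called. DESeq2 called 1 member at 24 h, Mrpl3 (-0.41, adjusted p = 0.0496), which is named here after its value was seen. The log2 differences (Aim2-/- minus WT) reached from -0.49 (Mrpl23) to 0.60 (Mrps6) at 0 h, from -0.26 (Mrps5) to 0.24 (Mrpl40) at 3 h and from -0.39 (Mrpl3) to 0.32 (Mrpl33) at 24 h. The 95% interval of the difference lay within 0.5 on either side of 0 for 62, 66 and 67 of the 77 members at these times. Without the mouse labelled WT 1 no member was called at any of the 4 times, with an unadjusted p under 0.05 for 4, 3, 8 and 3 members at 0, 3, 6 and 24 h. The differences then reached from -0.55 to 0.66 at 0 h, from -0.33 to 0.37 at 3 h, from -0.71 to 0.42 at 6 h and from -0.38 to 0.35 at 24 h, and 56, 57, 52 and 62 intervals lay within 0.5.

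At 6 h 3 members were called higher and 1 lower in Aim2-/- cells, with 8.78% of all genes called higher and 7.01% lower. With all mice, an unadjusted p under 0.05 was found for 19 members. The log2 differences reached from -0.72 (Mrpl23) to 0.49 (Mrpl14), and 56 of the 77 intervals lay within 0.5. Mrpl4 held 43.1, 41.7 and 40.6 CPM in Aim2-/- mice 1, 2 and 4 against 33.1, 35.5 and 36.1 CPM in WT mice 1, 3 and 4, a log2 difference of 0.26 ± 0.07 (edgeR adjusted p = 0.0198). Mrpl14 held 23.5, 21.1 and 28.8 CPM against 16.0, 18.5 and 17.9 CPM (0.49 ± 0.14, 0.0276). Mrps16 held 40.6, 42.2 and 50.4 CPM against 29.8, 36.1 and 36.0 CPM (0.39 ± 0.11, 0.028). Mrps18b was the lower one, with 18.7, 26.6 and 23.7 CPM against 33.1, 33.8 and 31.1 CPM (-0.51 ± 0.16, 0.0407). The groups did not overlap for any of these 4. Of the exon bases of Mrps18b 30.5% are overlapped by Gm16279 on the other strand, and of those of Mrpl14 11.2% by Tmem63b. No call was left without the mouse labelled WT 1, nor without WT mouse 3, WT mouse 4, Aim2-/- mouse 1 or Aim2-/- mouse 4, and 11 members were called without Aim2-/- mouse 2. At this time 4 of 8 B cell markers and 4 of 7 granulocyte markers were called higher in Aim2-/- cells (median log2 differences 1.94 and 3.08), as was 1 of 8 myeloid markers (1.50), and the 6 erythroid markers had a median difference of 2.97. The B cell markers summed to 175 to 389 CPM in Aim2-/- against 73.0 to 90.9 CPM in WT libraries, the granulocyte markers to 80.0 to 240 against 11.8 to 23.6 CPM, the myeloid markers to 64.8 to 201 against 25.6 to 51.2 CPM and the erythroid markers to 23.2 to 498 against 8.08 to 64.9 CPM. The NK cell markers summed to 67.2 to 85.9 against 39.9 to 54.2 CPM, with none of the 4 called. The part of these markers in the differences at 6 h was not tested.

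**Figure D5:**
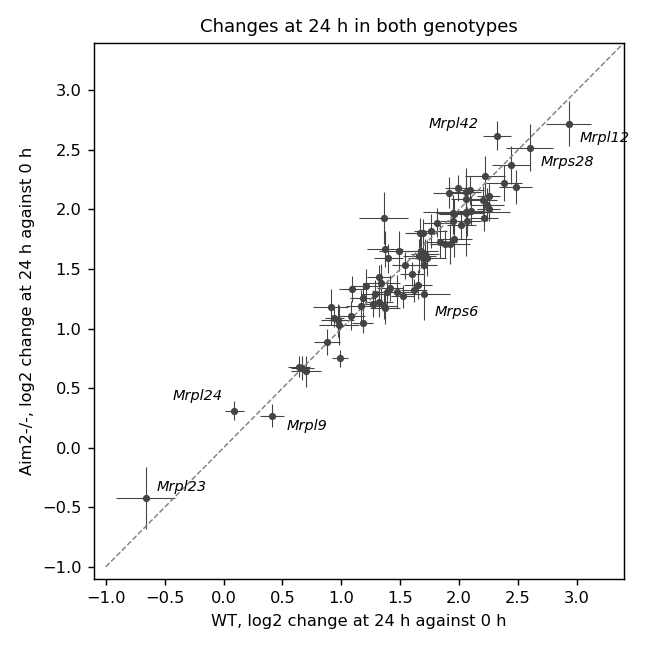
Log2 change from 0 to 24 h in WT (horizontal axis) and Aim2-/- cells (vertical axis) of the 77 tested members, with bars for the SE and the line of equal change. The points lie along the line, with medians of 1.67 and 1.61.

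The test of the difference in response itself (the interaction of genotype and time) called no member at 3, 6 or 24 h, with an unadjusted p under 0.05 for 1, 5 and 2 members. Of all genes it called 0.0%, 0.0261% and 0.0% at these times. The median difference in response of the members was 0.01, 0.06 and -0.06 on the log2 scale. With the mouse kept as a block, Mrpl22 was called at 6 h, with a difference in response of 0.61 (edgeR adjusted p = 0.0481), against 0.62 (0.215) without the block. Without the mouse labelled WT 1 no member was called in any interaction, with an unadjusted p under 0.05 for 1, 3 and 0 members. The differences then reached from -0.34 to 0.42, from -0.72 to 0.66 and from -0.49 to 0.42, and 31, 31 and 26 intervals lay within 0.5. With the block and without that mouse, Mrpl22 was at 0.66 at 6 h (edgeR adjusted p = 0.0732), a fit added after the data were seen. This large subunit gene held 8.35, 11.9 and 9.17 CPM at 0 h and 9.26, 11.4 and 9.49 CPM at 6 h in WT mice, and 7.36, 8.12 and 9.79 CPM and 13.7, 10.9 and 15.1 CPM in Aim2-/- mice. The WT groups overlapped and the Aim2-/- groups did not. Mrpl22 shares 22.1% of its 51-base words with the pseudogene Gm6997.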

How the data were processed

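RNA of splenic CD4+ T cells was extracted with RNeasy Mini columns and made into libraries with the TruSeq stranded mRNA kit. The counts were deposited as whole numbers per gene ID, and the authors made them with STAR on GRCm38 per the labels. The general methods of the study give single-end reads of 51 bases and Ensembl annotation for RNA sequencing, and the strand setting of the counting is not given in the sources used here. CPM, folds and all tests below were computed from these counts. Genes were kept by edgeR's filterByExpr with a minimum count of 10, which left 15325 of 54446 IDs, scaled by TMM and fitted with edgeR 4.0.16 (quasi-likelihood F test, two-sided) with 1 mean for each of the 8 groups over all 24 libraries. p-values were adjusted by Benjamini-Hochberg over all genes tested, and an adjusted p under 0.05 was a call. The common biological coefficient of variation was 18.6%. The p-values rest on a spread estimated over all 8 groups together, and not on the 3 mice of the compared groups alone. In this fit the libraries of a mouse at different times counted as independent. Before use, the fit was run on simulated WT libraries of 0 and 24 h with known changes. These were drawn as independent libraries with few genes changed. That run therefore says nothing on the pairing by mouse or on the wide changes of the real data.

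The members and gene lists were chosen with earlier results of these data known. Named members were the up to 5 largest called changes each way in each stimulation comparison, step and genotype comparison, every member not called or lower at 24 h in either genotype, the 3 highest and 3 lowest by RPKM at 0 h, and a list by role. Of other lists up to 3 of the largest called WT changes at 24 h were named, and 1 gene that met this rule is not reported here. Libraries with the same mouse label within a genotype were taken to come from the same animal. The correlation of their deviations from the group means lay between 0.139 and 0.567 in the 36 such pairs, which does not by itself identify an animal. Gene positions, exon overlaps and shared 51-base words came from GENCODE vM21 (GRCm38), and 54409 IDs were found there. RPKM was CPM per kilobase of the union of a gene's exons there. Promoters came from RefSeq (GRCm38.p6). Alternatives were DESeq2 1.42.0 and limma 3.58.1 (voom), other size factors and filters, only the libraries compared, a replicate block, and each mouse left out.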

Additional observations from a re-analysis of the deposited data

How the results depend on the processing

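Calls of named members were lost less often at 24 h against 0 h than in the other comparisons together. Of 660 values of named members for that comparison under the alternatives, 651 stayed called in the same direction and 9 did not. In the other comparisons 191 of 1981 values lost their call. No called change of a named member was reversed in any comparison. Named members were chosen in large part as the largest called changes in these data, so these shares were partly set by that choice. They do not measure how stable the calls of all members were. Scaled by library totals alone, the summed WT level at 24 h was 6573 instead of 6938 CPM. Causes of the changes listed here were not tested.

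With single mice left out, the members called ranged from 11 to 19 for WT 3 h against 0 h (28 with all mice), from 15 to 22 for Aim2-/- 3 h against 0 h (25), from 18 to 46 for WT 6 h against 3 h (52) and from 30 to 56 for Aim2-/- 6 h against 3 h (59). Between genotypes they ranged from 0 to 1 at 0 h, from 0 to 11 at 6 h (4) and from 0 to 3 at 24 h. Fitted on only the libraries compared, 14 members were called for Aim2-/- 3 h against 0 h, 13 for Aim2-/- 6 h against 3 h and 0 between genotypes at 6 h. With no filter on low counts 2 were called between genotypes at 0 h (Mrps5 and Mrps6), 2 at 6 h (Mrpl3 and Mrps18b) and 1 at 24 h (Mrpl3). Library totals alone gave 8 at 6 h, and DESeq2 gave 1 at 24 h, again Mrpl3. These were named after their values were seen.

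The replicate block for the mouse, whose libraries are paired over time, changed the call of 1 result, the interaction at 6 h (1 member called instead of 0), and moved no other count by over 1.5 times. Mouse numbers 1 and 4 occur in both genotypes but mark different animals, and the correlation of such libraries lay between -0.165 and 0.3 in 32 pairs. Their median was 0.0775, against -0.0392 (-0.301 to 0.29) in 112 pairs of other number and other genotype. With that number as a replicate block 8, 1, 27 and 6 members were called between genotypes at the 4 times in order. The number does not mark the same animal, and the labels do not say whether it marks anything else that the libraries share. The share of all genes called in that fit is not given here, and the fit was not run without the mouse labelled WT 1. These counts are therefore not read as a genotype difference of the members.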
